A study of Sus scrofa with 6 samples.

Results

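The genes described here are the nuclear genes of the mitochondrial respiratory chain in pig lung, arranged by complex. They were taken from the deposited mRNA table by gene symbol alone, with no use of their values: symbols that begin with NDUFA, NDUFB, NDUFC, NDUFS, NDUFV, UQCR, ATP5, COX4, COX5, COX6, COX7 or COX8, together with SDHA to SDHD, CYC1 and CYCS. This gave 50 of the 14579 mRNAs in the table. Of these, 41 encode subunits: 20 of complex I, 4 of complex II, 6 of complex III, 6 of complex IV and 5 of complex V. The other 9 share the naming without being subunits, and 6 of them are assembly factors of complex I. For a further 32 symbols of the same kind, CYC1 among them, the identifiers used for matching did not occur in the table. They were not analysed here, and some of these genes may be listed under older identifiers. RNA came from the lungs of 6 female hybrid piglets with a Tibetan sire and a Meishan dam, 3 in the prenatal group, taken by caesarean on the last day before birth, and 3 in the neonatal group, taken 2 days after birth. Each piglet came from a sow of its own. Whole lung tissue was used, and values are FPKM, fragment numbers scaled to transcript length and to the size of the library, from 1 Ribo-Zero library per piglet. The samples are named Prenatal1 to Prenatal3 and Neonatal1 to Neonatal3 after their labels.

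The respiratory chain passes electrons from NADH and succinate to oxygen and stores the energy as a proton gradient across the inner mitochondrial membrane. Complex I takes electrons from NADH and complex II from succinate. Both hand them to ubiquinone, complex III passes them on to cytochrome c, complex IV delivers them to oxygen, and complex V makes ATP with the proton gradient. Complex II is encoded in the nucleus alone, whereas complexes I, III, IV and V combine nuclear subunits with others encoded in the mitochondrial genome. In the lung, birth replaces a liquid-filled organ at low oxygen tension by one that is ventilated with air.

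The genes were among the more abundant mRNAs of the lung. The median FPKM over the 50 genes was 31.9 in the prenatal and 52.7 in the neonatal group, against 5.28 and 5.98 over all mRNAs. Within each complex the levels spread widely, although the proteins are built into the complex in fixed proportions. In complex I, mean FPKM over the 6 lungs ran from 0.556 for NDUFA6 to 2128 for NDUFB7, whose share of all FPKM summed was 0.364% ± 0.0591 before and 0.425% ± 0.130 after birth (SD over n = 3 lungs each). The range was narrower in complex II, from 8.62 to 75.5, with SDHB at the top and the membrane anchor SDHC at the bottom. UQCR10 led complex III at 433 FPKM, COX8A complex IV at 613 FPKM and ATP5PO complex V at 257 FPKM. UQCR10, COX8A and ATP5PO hold no catalytic site. FPKM divides by transcript length, and many of these mRNAs are short and have processed copies elsewhere in the genome, so that levels of different genes are less certain than differences of 1 gene between samples. NDUFA6, an accessory subunit of complex I, was listed at 0 in Prenatal1, Prenatal2 and Neonatal1 and at 0.126, 2.71 and 0.498 FPKM in Prenatal3, Neonatal2 and Neonatal3. It met the authors' limit of FPKM above 0.5 in at least 1 sample through Neonatal2 alone.

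**Figure D1:**
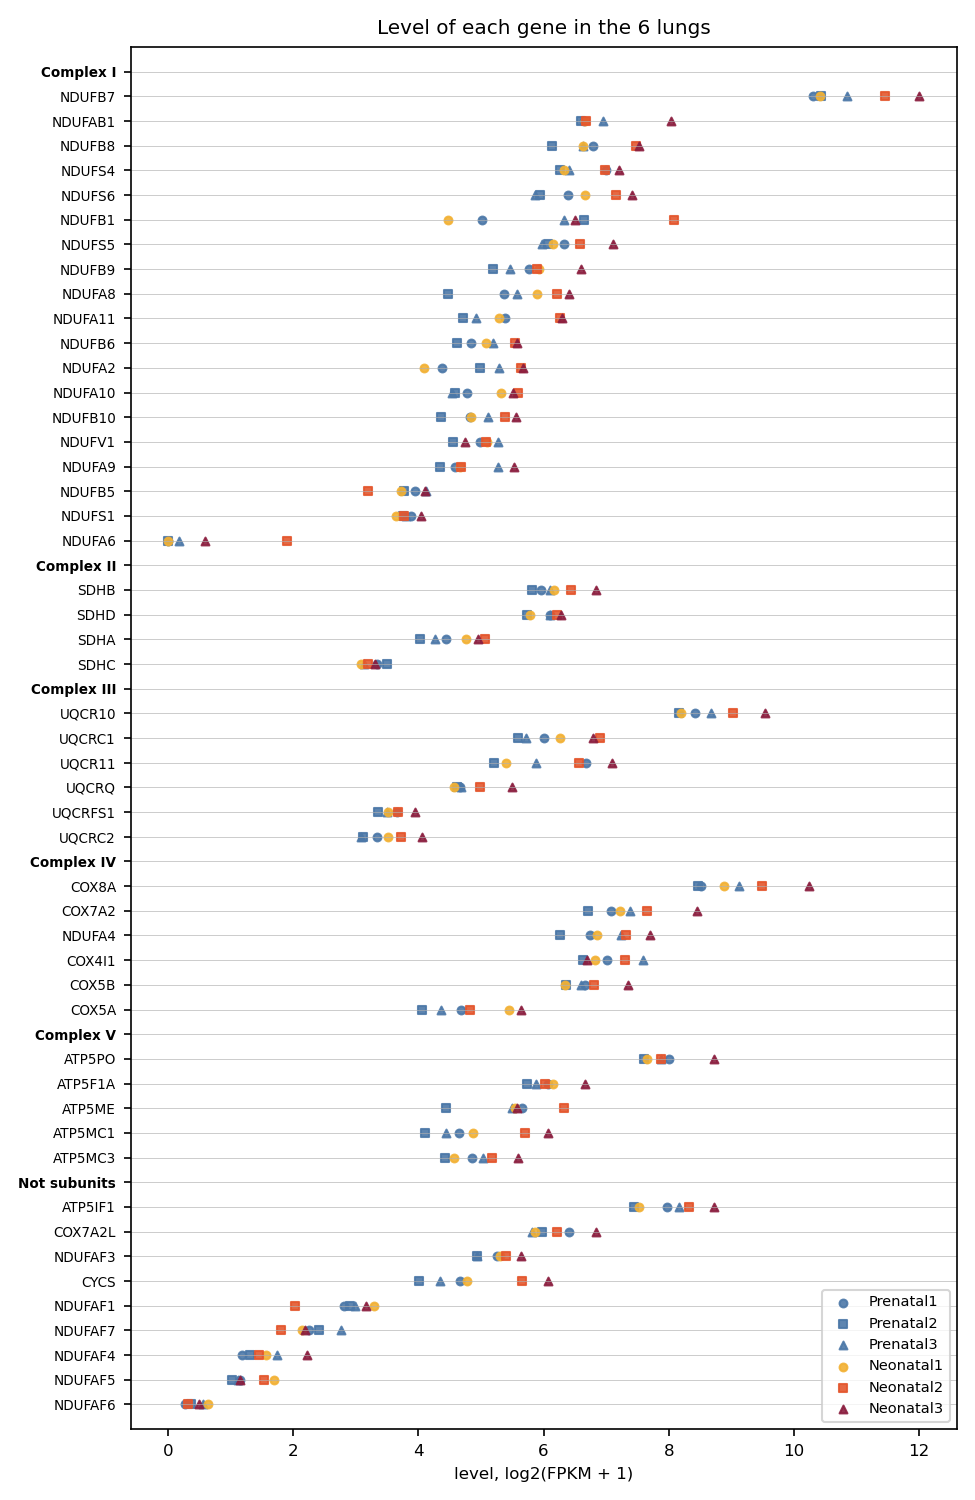
Level of 49 of the 50 genes in each of the 6 lungs as log2(FPKM + 1), grouped by complex and sorted by mean FPKM within a complex; blue symbols are prenatal and yellow to dark red symbols neonatal samples. NDUFB7, with a mean of 2128 FPKM, stands apart at the top, and NDUFA6, with a mean of 0.556 FPKM, at the bottom of complex I, while most subunits lie between these.

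Differences between the groups were fitted in limma on log2(FPKM + 1) over all mRNAs, and log2(FC) below is neonatal minus prenatal on that scale. Genes are called past the threshold at an adjusted p of up to 0.05. Of the 50 genes, 45 had a higher mean in the neonatal group, but only NDUFA10, an accessory subunit in the membrane arm of complex I, was past the threshold. That is 2.00% of the 50, against 6.87% of all mRNAs (5.41% higher and 1.45% lower). Left out of the 50 were 7 further rows that carry such a symbol in the study's list of changed genes. The shares given here for the 50 may therefore be too low. After median-of-ratios scaling, 650 mRNAs of the whole table were higher and 335 lower, and after quantile normalization 669 and 486, in place of 789 and 212. A higher mean was common throughout the table, at 59.9% of all mRNAs. The median log2(FC) was 0.40 over the 50 genes and 0.13 over all mRNAs, and that of the 50 was 0.22 without Neonatal3 and 0.68 without Neonatal1. At an unadjusted p under 0.05 stood 11 of the 50 genes, all of them higher after birth, a share close to the 24.2% of all mRNAs. In 13 genes (26.0%) each neonatal value lay above each prenatal value, beside 20.9% of all mRNAs: NDUFA8, NDUFA10, NDUFB9, NDUFS6, SDHA, SDHB, UQCRC1, UQCRC2, COX5A, ATP5MC1, CYCS, NDUFAF3 and NDUFAF5. The values of NDUFAF7 alone were separated in the other direction, which 9.64% of all mRNAs showed. The size of the common difference depended on scaling: the median log2(FC) of the 50 genes was 0.24 after median-of-ratios scaling, where that of all mRNAs was -0.0090, and 0.078 after quantile normalization, where that of all mRNAs was -0.038 and 31 of the 50 genes had the higher mean.

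By complex, the median log2(FC) was 0.49 for complex I, 0.32 for complex II, 0.46 for complex III, 0.63 for complex IV and 0.39 for complex V, and after quantile normalization these values were 0.083, -0.031, 0.072, 0.18 and 0.062, so that complex II changed sign. The members of a complex are not replicates, and the complexes were not tested against each other. The range within every complex was wider than the range among the 5 medians: complex I alone ran from -0.27 to 1.04, complex IV from -0.13 to 0.93 and complex V from 0.26 to 1.14.

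The spread among the neonatal lungs was wider than that among the complexes. For each gene the prenatal mean of log2(FPKM + 1) was subtracted, and the median over the subunits of a complex was taken in every sample. For complex I it was 0.062, -0.22 and 0.20 in Prenatal1, Prenatal2 and Prenatal3, and -0.017, 0.65 and 0.80 in Neonatal1, Neonatal2 and Neonatal3. Neonatal1 thus lay inside the prenatal range and the other two above it. For complex II the neonatal medians were 0.0039, 0.36 and 0.50, for complex III -0.037, 0.57 and 0.95, and for complex IV 0.14, 0.51 and 1.11, each with Neonatal1 inside the prenatal range. In complex V they were 0.26, 0.41 and 0.82, and there Neonatal1 also stood above the highest prenatal median, 0.18 in Prenatal1. The order Neonatal1, Neonatal2, Neonatal3 was shared by all 5 complexes. It also held in all 5 after median-of-ratios scaling, and in complexes I, II, III and IV after quantile normalization. In complex V after quantile normalization, Neonatal2 was lowest at 0.11, beside 0.14 in Neonatal1 and 0.19 in Neonatal3.

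Counted gene by gene, 16 of the 50 genes in Neonatal1 exceeded all prenatal values, against 35.4% of all mRNAs. In Neonatal2 33 did so, against 42.2% of all mRNAs, and in Neonatal3 42, against 46.6%. As shares of the 50 these are 32.0%, 66.0% and 84.0%. These numbers depended on scaling. After median-of-ratios scaling they were 15, 28 and 36 of the 50, beside 4659, 4960 and 4961 of the 14579 mRNAs. After quantile normalization they were 15, 18 and 25, beside 4377, 4761 and 4531. On FPKM as deposited, Neonatal1 had the lowest neonatal value of 39 genes, 35 of them subunits, beside 44.2% of all mRNAs. Neonatal3 had the highest of 39 genes, 33 of them subunits, beside 43.8% of all mRNAs. Below all prenatal values lay 8 genes in Neonatal1 (NDUFB1, NDUFA2, NDUFS1, NDUFB5, SDHC, UQCRQ, COX5B and NDUFAF7), 3 in Neonatal2 and 1 in Neonatal3, beside 25.7%, 25.1% and 22.4% of all mRNAs. When Neonatal1 was left out, 6 of the 50 genes were past the threshold, all higher in the neonatal group: ATP5MC1, CYCS, NDUFA10, UQCRC1, NDUFA11 and NDUFS6. Of all mRNAs, 6.48% were past it in that fit, and 5.38% were past it and higher. With Prenatal1, Prenatal2, Prenatal3, Neonatal2 or Neonatal3 left out, 0 of the 50 passed in limma, and 7 to 12 had an unadjusted p under 0.05. Those fits called few genes in the whole table as well, 163 to 323 higher and 33 to 74 lower of 14579 mRNAs. Without Neonatal1 these numbers were 785 and 159.

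The summed FPKM of the whole table followed the same order, with 491548 in Neonatal1, 603756 in Neonatal2 and 777982 in Neonatal3, and with 425272, 339491 and 471220 in Prenatal1, Prenatal2 and Prenatal3. As a share of that sum, the 50 genes made up 1.07%, 1.17% and 1.15% in the prenatal samples and 0.913%, 1.25% and 1.34% in the neonatal samples. On this measure Neonatal1 was the lowest of all 6 lungs, and Neonatal2 and Neonatal3 the highest. The share of complex II was lower in each neonatal than in each prenatal lung, at 0.0322%, 0.0330% and 0.0293% against 0.0373%, 0.0391% and 0.0342%. How far the summed FPKM accounts for the order of the neonatal lungs was not tested. In bulk tissue, fewer cells of a type and less RNA per cell cannot be told apart.

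**Figure D2:**
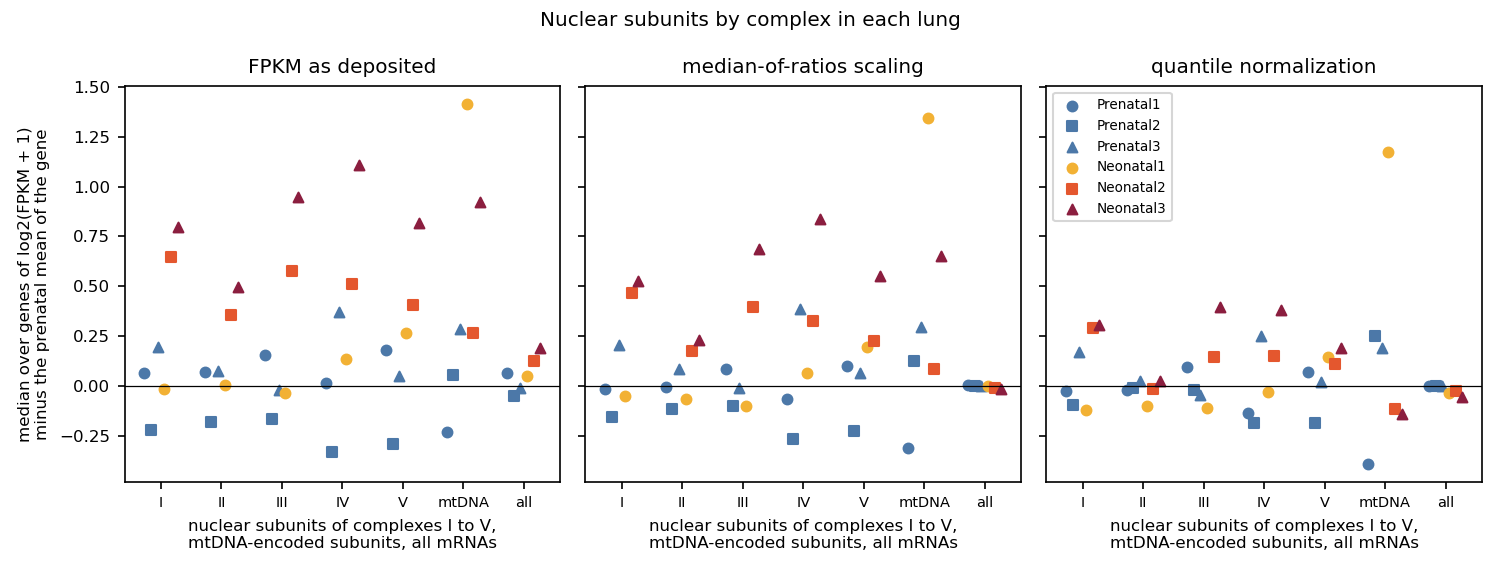
Median over genes of log2(FPKM + 1) minus the prenatal mean of the gene, in each of the 6 lungs, for the nuclear subunits of complexes I to V, the 13 mitochondrially encoded subunits (mtDNA) and all mRNAs, under 3 scalings. Neonatal3 (dark red triangles) was the highest for the nuclear subunits of each complex on FPKM as deposited, reaching 1.11 in complex IV, whereas Neonatal1 (yellow circles) was near the prenatal samples for the nuclear subunits and the highest for the mitochondrially encoded ones, at 1.41.

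NDUFA10 is an accessory subunit of complex I. Its FPKM was 26.4, 22.9 and 22.3 in Prenatal1, Prenatal2 and Prenatal3, and 38.8, 47.3 and 44.7 in Neonatal1, Neonatal2 and Neonatal3. Every neonatal value was well above every prenatal one, Neonatal1 included. NDUFA10 rose by 0.84 in log2(FC), with a standard error of 0.17 (adjusted p = 0.0332 in limma). The adjusted p lay between 0.0298 and 0.0409 with other pseudocounts, the stricter filter, median-of-ratios scaling or no variance trend. It was 0.0617 after quantile normalization. Without Prenatal1, Prenatal2, Prenatal3, Neonatal2 or Neonatal3 it lay between 0.0775 and 0.124, and without Neonatal1 it was 0.0372.

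The core subunits NDUFV1 and NDUFS1 of complex I, in the arm that oxidizes NADH, had log2(FC) values close to 0. NDUFV1, where NADH is oxidized, stood at 30.3 ± 7.69 FPKM before and 30.7 ± 4.22 FPKM after birth (SD, n = 3 each), and the 95% confidence interval around its log2(FC) of 0.040 ran from -0.51 to 0.59. NDUFS1, which carries iron-sulfur clusters, stood at 13.1 ± 0.629 and 13.2 ± 2.03 FPKM (SD, n = 3 each), with an interval from -0.41 to 0.41. A doubling, which is a log2(FC) of 1, lay outside both intervals. The 17 accessory subunits had a median log2(FC) of 0.53, and 16 of them had the higher mean in the neonatal group. The core and accessory subunits were set apart after their values had been seen, and the difference between them was not tested. Only 3 core subunits were matched, and the other core subunits of complex I were not analysed here. Among these was NDUFS3, whose row was left out because its symbol came from the study's list of changed genes. The values close to 0 therefore do not describe the core subunits as a set.

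NDUFA8, an accessory subunit of the membrane arm, had the largest log2(FC) of complex I. Its FPKM was 40.3, 21.2 and 46.4 in the prenatal samples and 58.8, 73.6 and 83.5 in the neonatal ones, without overlap (log2(FC) 1.04, standard error 0.31, adjusted p = 0.0974 in limma). NDUFS6, an accessory subunit of the matrix arm, was at 82.6, 60.6 and 57.5 FPKM before and 101, 142 and 170 FPKM after birth (log2(FC) 1.02, adjusted p = 0.0661 in limma). Its groups did not overlap either, and Neonatal1 was the closest to the prenatal values. NDUFA11, of the membrane arm, did overlap: Neonatal1, at 38.1 FPKM, was below Prenatal1, at 40.6 FPKM, while Neonatal2 and Neonatal3 reached 76.2 and 77.4 FPKM. NDUFB9, also of the membrane arm, was the remaining complex I gene without overlap, at 43.9 ± 8.85 and 71.6 ± 21.4 FPKM (SD, n = 3 each), for a log2(FC) of 0.67 (adjusted p = 0.173 in limma).

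The abundant NDUFB7, of the membrane arm, showed the same split among neonatal lungs. Its FPKM was 1259, 1375 and 1838 in the prenatal samples and 1373, 2809 and 4115 in the neonatal ones. Neonatal1 lay between the prenatal values and Neonatal3 far above them, and the log2(FC) of 0.77 had a confidence interval from -0.46 to 2.00. NDUFB1, another membrane arm subunit, varied widely, from 21.2 FPKM in Neonatal1 to 272 FPKM in Neonatal2, with an interval from -1.66 to 2.38. NDUFAB1, the mitochondrial acyl carrier protein, was at 101 FPKM in Neonatal1 and Neonatal2 alike and at 263 FPKM in Neonatal3. NDUFB5 was the only complex I subunit with the lower mean after birth, at 14.5 ± 1.86 and 12.2 ± 4.01 FPKM (SD, n = 3 each), for a log2(FC) of -0.27 (adjusted p = 0.553 in limma). The other accessory subunits (NDUFB8, NDUFB6, NDUFB10, NDUFS5, NDUFS4, NDUFA2 and NDUFA9) had log2(FC) values from 0.22 to 0.69 and overlapping groups.

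**Figure D3:**
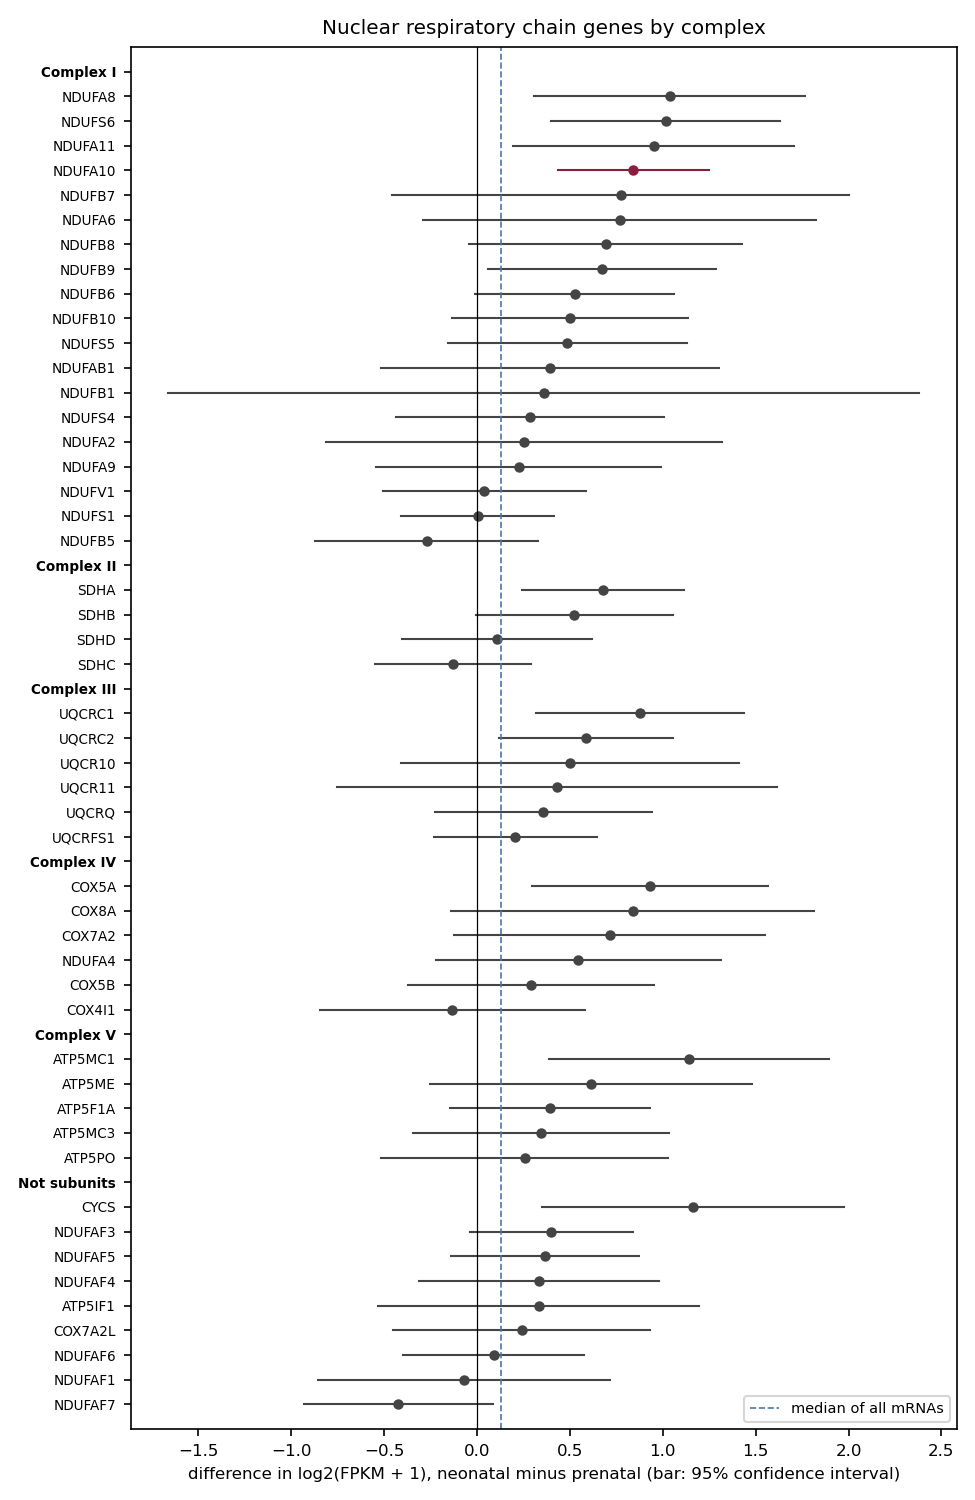
Difference between the groups for 49 of the 50 genes, neonatal minus prenatal in log2(FPKM + 1), with the 95% confidence interval from limma, grouped by complex and sorted within it; the dashed line is the median of all mRNAs, 0.13. NDUFA10 (dark red) was the gene past the threshold, and the intervals of 11 genes lay above 0 before adjustment.

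Complex II links the chain to the TCA cycle. Its flavoprotein SDHA, which oxidizes succinate, was at 20.8, 15.3 and 18.2 FPKM in the prenatal and 26.1, 32.4 and 29.9 FPKM in the neonatal samples (log2(FC) 0.68, standard error 0.19, adjusted p = 0.0776 in limma). All neonatal values exceeded all prenatal ones. The iron-sulfur subunit SDHB was at 61.2, 55.1 and 67.3 FPKM before and 70.6, 85.9 and 113 FPKM after birth, again without overlap (log2(FC) 0.52, adjusted p = 0.212 in limma). The groups of the membrane anchors SDHC and SDHD did overlap. SDHC was at 9.11, 10.3 and 7.77 FPKM before and 7.49, 8.18 and 8.83 FPKM after birth (log2(FC) -0.13, interval from -0.55 to 0.29). SDHD was at 62.5 ± 9.11 and 67.7 ± 12.1 FPKM (SD, n = 3 each), and its log2(FC) of 0.11 became -0.068 after median-of-ratios scaling, -0.23 after quantile normalization and -0.018 without Prenatal2. The ratio of SDHA to SDHC in FPKM, computed after these values had been seen, was 2.28, 1.48 and 2.35 in the prenatal and 3.49, 3.96 and 3.38 in the neonatal samples.

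In complex III, the core proteins UQCRC1 and UQCRC2, which form the matrix side of the complex, were the genes without overlap. UQCRC1 was at 63.5, 47.3 and 51.6 FPKM in the prenatal and 75.6, 119 and 110 FPKM in the neonatal samples (log2(FC) 0.88, standard error 0.24, adjusted p = 0.0753 in limma). UQCRC2 was lower in level, at 8.09 ± 0.909 and 12.8 ± 2.65 FPKM (SD, n = 3 each), for a log2(FC) of 0.59 (adjusted p = 0.133 in limma). The Rieske iron-sulfur protein UQCRFS1, which passes electrons toward cytochrome c, had the smallest log2(FC) of the complex, 0.21, with 10.4 ± 1.19 and 12.2 ± 1.98 FPKM (SD, n = 3 each). The small accessory subunits UQCR10, UQCR11 and UQCRQ had log2(FC) values of 0.50, 0.43 and 0.36, with Neonatal1 among the prenatal values or below them in each, and the value of UQCR10 turned to -0.15 after quantile normalization. UQCRQ was steady before birth, at 24.4, 23.6 and 24.7 FPKM, and read 22.7, 30.5 and 44.3 FPKM after birth.

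Cytochrome c, encoded by CYCS, carries electrons from complex III to complex IV and also takes part in apoptosis. It had the largest log2(FC) of the 50 genes, 1.16 (standard error 0.35, adjusted p = 0.0969 in limma). CYCS was at 24.4, 15.0 and 19.2 FPKM in the prenatal and 26.4, 49.1 and 66.1 FPKM in the neonatal samples. The groups did not overlap, but Neonatal1 was only just above Prenatal1. Without Neonatal1 the log2(FC) of CYCS was 1.52 (adjusted p = 0.0369 in limma).

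Complex IV had the highest median level of the 5 complexes, with a median FPKM over its subunits of 123 before and 142 after birth. COX5A, a matrix-side subunit, was at 24.8, 15.6 and 19.6 FPKM in the prenatal and 42.7, 27.2 and 48.7 FPKM in the neonatal samples (log2(FC) 0.93, standard error 0.27, adjusted p = 0.0909 in limma). Here Neonatal2, not Neonatal1, was lowest after birth. COX8A, at 364, 354 and 555 FPKM before and 469, 719 and 1214 FPKM after birth, had a log2(FC) of 0.84 with overlapping groups. COX7A2, the form of subunit 7A found outside heart and skeletal muscle, was at 135 ± 31.2 and 232 ± 105 FPKM (SD, n = 3 each; log2(FC) 0.71). NDUFA4, named after complex I but known as a subunit of complex IV, was at 110 ± 37.1 and 160 ± 45.5 FPKM (SD, n = 3 each; log2(FC) 0.55), and COX5B had a log2(FC) of 0.29.

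COX4I1, the common form of subunit 4 and a regulatory one, was the subunit of complex IV with the lower mean after birth. Its FPKM was 128, 97.8 and 191 in the prenatal and 112, 156 and 103 in the neonatal samples, and the values of both groups were fully mixed (log2(FC) -0.13, interval from -0.85 to 0.58, adjusted p = 0.816 in limma). Without Prenatal3 its log2(FC) was 0.12. Unlike most genes of the complex, COX4I1 had its highest neonatal value in Neonatal2 and its lowest in Neonatal3. Of 6 pairs of interchangeable subunits or isoforms that were planned, 1 had both genes matched in the table. The hypoxia and muscle forms of complex IV subunits were therefore not analysed here.

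That pair belonged to complex V, where ATP5MC1 and ATP5MC3 encode the same mature subunit of the c ring, the rotor that protons drive, with different targeting sequences. ATP5MC1 was at 24.2, 16.3 and 20.8 FPKM in the prenatal and 28.2, 51.2 and 65.8 FPKM in the neonatal samples (log2(FC) 1.14, standard error 0.32, adjusted p = 0.0837 in limma). ATP5MC3 was at 27.9, 20.5 and 31.5 FPKM before and 22.8, 35.1 and 47.0 FPKM after birth (log2(FC) 0.34, adjusted p = 0.509 in limma). In FPKM the ratio of ATP5MC1 to ATP5MC3 was 0.867, 0.796 and 0.661 in the prenatal samples, and 1.24, 1.46 and 1.40 in the neonatal samples. In FPKM, ATP5MC1 was thus below ATP5MC3 in all 3 prenatal lungs and above it in all 3 neonatal lungs, Neonatal1 included. Levels of different genes are less certain, so which gene is higher is less sure than the difference of the ratio between the groups. As a difference of log2(FPKM + 1), the ratio was 0.80 higher after birth (two-sided p = 0.1 by exact permutation, which is the lower limit for 3 against 3), and 0.69 to 0.88 higher when any 1 lung was left out.

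The other subunits of complex V had overlapping groups. ATP5F1A, the alpha subunit of the catalytic head, was at 66.3, 52.1 and 57.6 FPKM before and 70.4, 64.3 and 101 FPKM after birth (log2(FC) 0.39, interval from -0.15 to 0.93). ATP5ME, a membrane subunit, was highest in Neonatal2, at 78.8 FPKM, and had a log2(FC) of 0.61 with an interval from -0.25 to 1.48. ATP5PO, the stalk subunit OSCP, had the highest level of the complex and the smallest log2(FC), 0.26, which was -0.066 without Neonatal3 and -0.27 after quantile normalization. Its FPKM was 200, 234 and 423 in the neonatal samples, beside 194 to 255 in the prenatal ones.

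**Figure D4:**
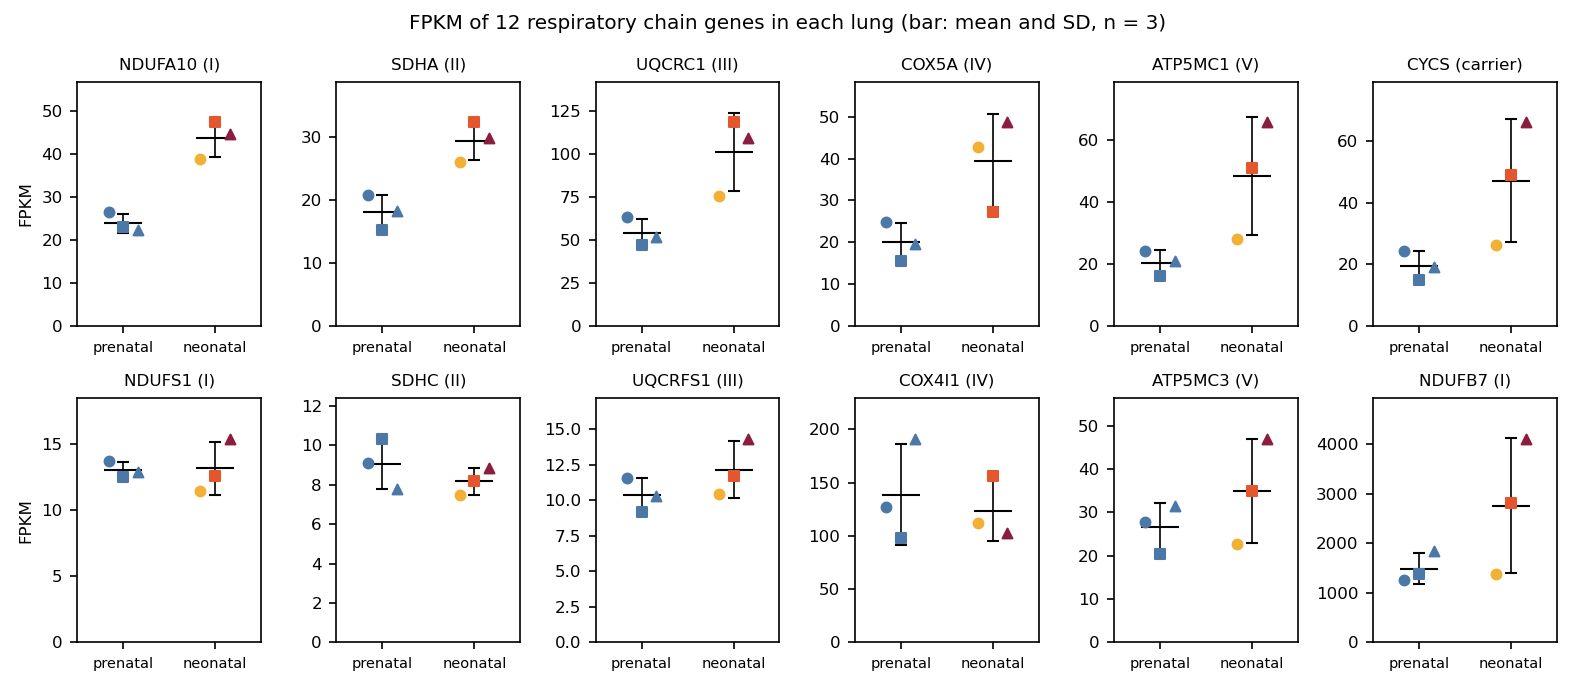
FPKM of 12 of the genes in each lung, prenatal in blue and Neonatal1, Neonatal2 and Neonatal3 in yellow, orange and dark red, with the mean and SD of each group of 3. In the upper row (NDUFA10, SDHA, UQCRC1, COX5A, ATP5MC1 and CYCS) no neonatal value reached down into the prenatal range, whereas in the lower row the groups overlapped, with NDUFB7 ranging from 1373 to 4115 FPKM after birth.

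The 9 genes that are not subunits had a median log2(FC) of 0.33. Among the 6 assembly factors of complex I the median was 0.21, and 3 of them, NDUFAF1, NDUFAF5 and NDUFAF6, were highest after birth in Neonatal1, as was 1 of the 41 subunits. NDUFAF3 was at 37.1, 29.8 and 29.6 FPKM before and 38.3, 41.2 and 48.7 FPKM after birth, without overlap (log2(FC) 0.40, adjusted p = 0.242 in limma). NDUFAF7, a methyltransferase that acts on a core subunit of complex I, was at 3.75, 4.33 and 5.75 FPKM before and 3.43, 2.51 and 3.56 FPKM after birth, and these groups did not overlap either (log2(FC) -0.42, adjusted p = 0.280 in limma). NDUFAF5 was separated upward at 1.13 ± 0.0990 and 1.78 ± 0.516 FPKM (SD, n = 3 each), and NDUFAF1, NDUFAF4 and NDUFAF6 overlapped. The inhibitor of ATP hydrolysis ATP5IF1 was at 236 ± 57.5 and 308 ± 120 FPKM (SD, n = 3 each; log2(FC) 0.33), and the supercomplex assembly factor COX7A2L at 67.2 ± 15.0 and 81.5 ± 28.9 FPKM (SD, n = 3 each; log2(FC) 0.24).

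The median over the 13 subunits encoded in the mitochondrial genome stood in a different order of lungs. Neonatal1, with the lowest neonatal median for the nuclear subunits of all 5 complexes, had the highest median here. The median of the 13, relative to the prenatal mean, was 1.41 in this lung, 0.26 in Neonatal2 and 0.92 in Neonatal3. Gene by gene, Neonatal1 was the highest neonatal lung for 8 of the 13. Neonatal3 was the highest for 5, which were COX1, COX2, COX3, ND3 and ND6. In Neonatal1, 12 of the 13 exceeded all prenatal values, against 11 of the 41 nuclear subunits and 35.4% of all mRNAs. In Neonatal3 the numbers were 8 of 13 and 35 of 41, beside 46.6% of all mRNAs. After quantile normalization the numbers were 11 of 13 and 11 of 41 in Neonatal1, beside 4377 of the 14579 mRNAs. In Neonatal3 they were 4 of 13 and 23 of 41, beside 4531. The mitochondrially encoded median on that scale was 1.18 in Neonatal1 and -0.12 and -0.14 in Neonatal2 and Neonatal3. ND1, a core subunit of complex I, was at 92.4, 38.0 and 60.2 FPKM in these 3 lungs and at 18.7, 28.5 and 36.2 FPKM before birth. Of the 13, 0 were past the threshold in limma and 4 had an unadjusted p under 0.05, beside 6.87% and 24.2% of all mRNAs.

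Other genes that serve the chain were read from a fixed list. Of its 80 symbols 50 were matched in the table. Beside 6.87% of all mRNAs, 1 of these 50 was past the threshold. This was ECSIT, a complex I assembly factor that is also known as an adaptor in Toll-like receptor signaling, which rose from 11.5, 11.8 and 10.6 FPKM to 18.6, 25.5 and 26.1 FPKM (log2(FC) 0.97, standard error 0.19, adjusted p = 0.0277 in limma). Its adjusted p was 0.0877 to 0.107 without Prenatal1, Prenatal2, Prenatal3, Neonatal2 or Neonatal3. The 20 assembly factors of this list that were found had a median log2(FC) of 0.31, and the 9 genes of other electron entry and of carriers for ADP, ATP and phosphate one of 0.43. The 8 transcription regulators had a median of 0.12. Of these 8, the groups of 2 were separated upward and those of 1 downward, beside 20.9% and 9.64% of all mRNAs. The coactivators PPRC1 and PPARGC1B, named after their values were seen, were the former, with 2.42 ± 0.153 and 4.44 ± 0.573 FPKM for PPRC1 (SD, n = 3 each), a log2(FC) of 0.66 (adjusted p = 0.0772 in limma). PPARGC1B had 1.96 ± 0.437 and 3.16 ± 0.194 FPKM (SD, n = 3 each), a log2(FC) of 0.50 (adjusted p = 0.179 in limma). Nuclear respiratory factor 1, encoded by NRF1, which activates many nuclear genes of the chain, was at 8.46, 8.19 and 8.68 FPKM before and 7.30, 5.63 and 6.32 FPKM after birth (log2(FC) -0.35, adjusted p = 0.254 in limma). The coactivator PPARGC1A was low throughout, at 0.420 ± 0.231 and 0.269 ± 0.152 FPKM (SD, n = 3 each), and the nuclear receptor ESRRA was at 9.55, 7.46 and 9.99 FPKM before and 9.41, 12.8 and 13.7 FPKM after birth (log2(FC) 0.37, adjusted p = 0.321 in limma). TFAM was not analysed here.

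In the lung tissue, markers of alveolar epithelium were abundant, with the summed FPKM of 5 of 7 type II markers (SFTPC foremost) between 4409 and 4987 before and between 5648 and 10580 after birth. In the neonatal lungs this sum was lowest in Neonatal1 and highest in Neonatal3, which followed SFTPC, at 4233, 6097 and 8790 FPKM. The other type II markers did not share that order. SFTPD, NAPSA and ABCA3 were highest in Neonatal2, ABCA3 was lowest in Neonatal3, and SFTPB was lowest in Neonatal2. NAPSA had the lower mean after birth (log2(FC) -0.24). Of the 5 genes, 0 were past the threshold in limma or had an unadjusted p under 0.05. The sum of the 5 of 6 macrophage markers found, mostly MARCO, rose from Neonatal1 to Neonatal3. It was 263, 528 and 662 FPKM beside 114 to 339 FPKM before birth, though CSF1R was highest in Neonatal2. The 2 of 5 neutrophil markers had the same order, at 188, 258 and 287 FPKM beside 28.2 to 39.1, with S100A8 past the threshold. All 5 of the 7 cycling cell markers found had risen, from a sum of 7.93 to 13.4 FPKM to one of 77.1, 91.2 and 98.3 FPKM. Of the 5 smooth muscle markers ACTA2, CNN1 and TAGLN were past the threshold and higher. MYH11 (log2(FC) 0.74, adjusted p = 0.135 in limma) and DES (log2(FC) 0.12, adjusted p = 0.855 in limma) were not past it. The sums over all 5 were 348 to 572 FPKM before and 1049 to 1712 FPKM after birth. Striated muscle, which is rich in mitochondria, gave sums of 10.3 to 10.6 FPKM over 5 of 10 markers before and 5.88 to 8.74 FPKM after birth. TNNT2 was past the threshold and lower, and RYR2 also had the lower mean. MYH6, ACTC1 and MYBPC3 had the higher mean after birth, and the median log2(FC) of the 5 was 0.10. The 3 of 7 ciliated cell markers summed to 46.7 to 77.1 FPKM before and 46.2 to 50.6 FPKM after birth, the 4 of 5 type I markers to 837 to 1250 and 721 to 1340 FPKM, and the 4 of 6 erythroid markers to 1260 to 2700 and 967 to 1535 FPKM. Most of the erythroid sum was HBB, which had the lower mean after birth, as had ALAS2. HBM and SLC4A1 had the higher mean. Of the 2 brown fat markers 0 were matched in the table. The part of any of these cell types in the differences described above was not tested.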

How the data were processed

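Lung RNA of 6 piglets (n = 3 per group, 1 strand-specific Ribo-Zero library each) was analysed from the mRNA table. The authors deposited FPKM, which they computed per gene with Cufflinks 2.2.1 after TopHat 2.1.0 had aligned the filtered reads to the Sscrofa10.2 assembly, keeping genes with FPKM above 0.5 in at least 1 sample; the lncRNA table was not used. Read counts are not part of the table used here, so counting error is unknown and the spread of 3 piglets is the only error.

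Identifiers were matched to symbols in a reference table (9478 of 14579). In the part of the study's list of changed genes that was read, 7 further rows carry such a symbol; they were left out because that list was chosen on these samples. The members and lists were chosen with earlier results of these data known. Coordinates and sequences were not used here.

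Differences were fitted in limma 3.58.1 (R 4.3.3) on log2(FPKM + 1) with a mean-variance trend, with Benjamini-Hochberg adjustment over all 14579 mRNAs; the scale understates changes of low values. The study's Cuffdiff test needs alignments and was not repeated. The fit was tested on simulated data. Named by rule were members past the threshold, the most abundant member and the members with the extreme log2(FC) of each complex, SDHA to SDHD, CYCS, isoform pairs and, of the other genes, those past the threshold, PPARGC1A, NRF1, TFAM and ESRRA; the remaining members were named after their values were seen, to account for the others. Of the 50, 1 is counted but not reported here by name or drawn by gene. Alternatives were each sample left out, a block for the replicate number, no variance trend, quantile normalization, median-of-ratios scaling, a stricter filter (3 or more samples with FPKM over 1) and pseudocounts of 0.5 and 0.1. Python 3.11.15 with numpy 2.4.6, pandas 2.3.3, scipy 1.17.1 and matplotlib 3.10.9 was used for summaries and figures.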

Additional observations from a re-analysis of the deposited data

How the results depend on the processing

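The 1 member past the threshold (NDUFA10) was also the count with other pseudocounts, the stricter filter, median-of-ratios scaling, no variance trend or the 41 subunits alone. It became 0 after quantile normalization and 0 with the replicate block, where 11 and 9 members had an unadjusted p under 0.05, and between 0 and 6 with a sample left out, 6 being the value without Neonatal1. The replicate numbers are shared by piglets of different sows, and the deviations of same-numbered samples were nearly uncorrelated (r = -0.0407, -0.00434 and 0.000466). Whether same-numbered samples share more than the number, such as handling, is not known. With the block, the adjusted p was 0.130 for NDUFA10 and 0.0920 for ECSIT, and 336 mRNAs were higher and 65 lower, in place of 789 and 212. The lower calls were 335 after median-of-ratios scaling and 486 after quantile normalization. With a sample left out, the higher calls ranged from 163 to 785 and the lower ones from 33 to 159. Of the other respiratory chain genes, 2 were past the threshold under the stricter filter, 3 without a variance trend and 0 with the block, and between 0 and 2 with a sample left out. The median of complex II turned to -0.031 and that of complex V moved to 0.062 after quantile normalization. With a sample left out, the medians ranged from 0.32 to 0.74 in complex I, 0.18 to 0.47 in complex II, 0.15 to 0.79 in complex III, 0.36 to 0.83 in complex IV and 0.20 to 0.61 in complex V, with the lowest value without Neonatal3 in each. Of the 50 members, 14 changed sign after quantile normalization, 4 after median-of-ratios scaling and 1 to 6 with a sample left out. Among those named by rule, these included ATP5PO (-0.27 after quantile normalization, and from -0.066 without Neonatal3 to 0.47 without Neonatal1), COX4I1 (from -0.36 without Prenatal2 to 0.12 without Prenatal3), SDHD (-0.068 and -0.23 after median-of-ratios scaling and quantile normalization, and from -0.018 without Prenatal2 to 0.26 without Neonatal1) and UQCR10 (-0.15 after quantile normalization). Counting NDUFA4 with complex I, a choice made after the data were seen, gave medians of 0.50 and 0.71 for complexes I and IV. The causes of these shifts were not tested.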
